A study of Mus musculus with 14 samples.

Results

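Proteasome subunit genes were described in 14 mouse cortical culture libraries by taking every row whose symbol was Psma, Psmb, Psmc, Psmd or Psme followed by a number. This choice used no measured value and found 43 genes among 45802 features. Of these, 39 were among the 10877 genes that passed the filter on low values and were tested. The other 4 were Psmb8, Psmb9, Psmb11 and Psma8. All libraries came from wild-type (WT) C57BL/6 primary cortical neurons, treated for 1 h at 12 days in vitro. The control received 1% DMSO (2 libraries, replicates 2 and 3, with no replicate 1 among the 14). The other groups, of 3 libraries each, received 20 µM bicuculline, 4% (v/v) NMP peptides, 4% NMP peptides cleaved with proteinase K (PK), or 4% NMP peptides together with 100 µM APV. NMP stands for the neuronal membrane proteasome, a proteasome complex at the neuronal plasma membrane, from which the peptides were derived. Bicuculline blocks GABA-A receptors, and APV blocks NMDA receptors. The DMSO content of the other 4 groups is not given in the labels, and an APV-only group was not analysed here. The labels call the replicates biological but do not tell whether they came from separate cultures or animals, and the p-values measure only the spread between these samples.

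The proteasome is a barrel of stacked rings that cuts proteins into short peptides. The outer rings are made of alpha subunits (Psma) and gate the entry, and the inner rings are made of beta subunits (Psmb), of which Psmb5, Psmb6 and Psmb7 carry the cutting sites. A regulatory particle, with a base of ATPases (Psmc) and non-ATPase subunits and a lid (both Psmd), binds ubiquitin-tagged proteins, removes the tag and threads the chain into the barrel. Psmd5, Psmd9 and Psmd10 are chaperones that help to assemble the base and are not part of the finished particle. The activators Psme1 to Psme4 cap the barrel without ATP. Interferon induces Psmb8, Psmb9 and Psmb10, which replace Psmb5, Psmb6 and Psmb7 in the immunoproteasome, while Psmb11 belongs to thymic epithelium and Psma8 to testis. When proteasome activity falls, the transcription factor Nfe2l1 raises most subunit genes together through antioxidant response elements in their promoters.

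Promoter windows from RefSeq (GRCm38.p6), 250 bases before to 50 bases after each start site, were found for 36 of the 43 genes, in 39 windows. They were searched on both strands for the core of the antioxidant response element, TGACNNNGC, and for that of the interferon-stimulated response element, which is GAAA, any 2 bases, and GAAA again. The matches in Psmb5 and Psmb6 are shown because these genes encode cutting subunits, that in Psme4 because this activator was the least expressed, and that in Psme1 because this activator is known to be interferon-inducible. Each sequence runs 5′ to 3′ on the strand of its gene, with the match in capitals, and in Psme4 and Psme1 the motif lies on the opposite strand.
Psmb5, antioxidant response element core, chr14:54618024-54618052, minus strand: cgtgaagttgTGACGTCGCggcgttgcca
Psmb6, antioxidant response element core, chr11:70525338-70525366, plus strand: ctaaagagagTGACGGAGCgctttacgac
Psme4, antioxidant response element core, chr11:30771758-30771786, plus strand: cgctgcggctGCAGCGTCAccagaagagc
Psme1, interferon-stimulated response element core, chr14:55578493-55578522, plus strand: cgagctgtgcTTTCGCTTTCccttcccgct

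The antioxidant core was found in 6 of 39 windows (15.4%), belonging to Psmb5, Psmb6, Psmc6, Psmd9, Psmd12 and Psme4, against 12.4% of 32851 windows of all genes. The interferon core was found in 4 of 39 windows (10.3%), belonging to Psmb3, Psmd4, Psmd9 and Psme1, against 3.44% of all windows. No match to either core lay in the windows of Psmb8, Psmb9 or Psmb10. These are matches of letters within one window and say nothing about binding.

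The libraries share one distribution of values, with a median of 2.19 and a maximum of 12.0 on the log2 scale, as quantile normalisation leaves them. Read depth is unknown, and any change in the total amount of RNA is lost in that scaling. Levels below are log2 signals, a difference of 1 being 2-fold. The values behave as signals per length, so levels of different genes were compared, although the gene lengths used by the authors were not given. Markers of excitatory neurons (7 of 7 genes tested) summed to linear levels of 240 to 331 across libraries, and those of inhibitory neurons (7 of 7) to 459 to 587. Astrocyte markers (8 of 8) summed to 260 to 336 and oligodendrocyte lineage markers (7 of 7) to 118 to 176, so the cultures held glial RNA beside that of neurons. Microglia markers (0 of 7 tested) summed to 0.545 to 0.901, and endothelial and mural markers (0 of 6 tested) to 1.49 to 2.35. In such bulk samples, fewer cells of a type and less RNA per cell cannot be told apart.

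The subunits of the barrel and the regulatory particle were among the most abundant mRNAs, and their levels lay close together. Leaving out Psma8, the 31 subunits of the alpha ring, constitutive beta ring, base and lid had mean levels from 4.84 (Psmd11) to 7.44 (Psmb4), a 6.08-fold range. These levels exceeded those of 87.9% to 98.6% of the features with a value. Without Psmd11 and Psmd12, both lid subunits, the other 29 spanned 5.77 (Psmd14, the lid deubiquitinase) to 7.44, a 3.19-fold range.

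The constitutive beta ring had the highest median level, 6.68 over 7 genes, running from Psmb2 at 6.32 to Psmb4 at 7.44. The alpha ring followed at 6.12 over 8 genes, with the testis gene Psma8 counted. Its 7 tested genes ran from Psma3 at 5.78 to Psma2 at 6.64, with Psma7 in the middle at 6.14. The 3 base non-ATPases had a median of 6.11, from Psmd1 at 5.99 to Psmd2 at 6.75, both large scaffold subunits. The 6 base ATPases had a median of 6.05, from Psmc6 at 5.81 to Psmc1 at 6.60, and the 8 lid subunits a median of 5.94, from Psmd11 to Psmd8 at 6.28. The activators lay lower, with a median of 4.94, and the 3 assembly chaperones lower still at 3.61, from Psmd10 at 3.18 to Psmd5 at 4.44. The 4 inducible or tissue-restricted beta genes had a median of -2.14.

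Part of this order held in every library. The constitutive beta ring had the highest role median in 14 of 14 libraries and exceeded the alpha ring by 0.31 to 0.80. The ATPases exceeded the lid by 0.07 to 0.19, and the lid exceeded the activators by 0.81 to 1.13, in 14 of 14 libraries each. The alpha ring and the ATPases were close neighbours, with differences from -0.06 to 0.21 that were above 0 in 13 of 14 libraries.

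**Figure D1:**
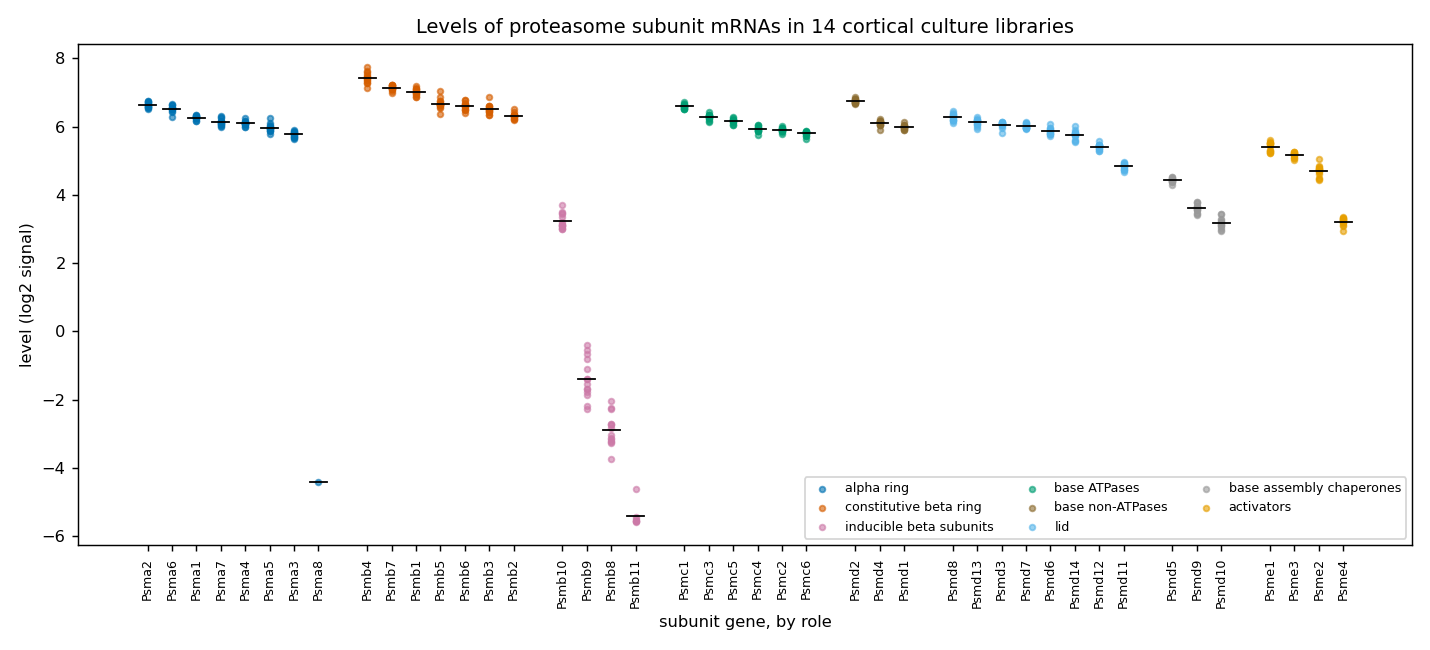
Level (log2 signal, vertical axis) of the 43 subunit genes, ordered by role and then by mean level; each point is 1 library and each bar the mean over the libraries with a value. Apart from Psma8 and the inducible or tissue-restricted beta genes, the barrel and regulatory particle subunits have means between 4.84 and 7.44. Psmb8, Psmb9 and Psmb11, with means of -2.88, -1.39 and -5.41, lie far below the constitutive beta ring.

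Each inducible beta subunit lay below the constitutive subunit that it replaces, by very different margins. Psmb5, the chymotrypsin-like subunit (chromosome 14, 54614120 to 54617995), exceeded Psmb8 (chromosome 17, 34198195 to 34201454) by 9.56 on average, or 755-fold. Over the 14 libraries this difference ran from 8.96 to 10.1. Psmb6, the caspase-like subunit (chromosome 11, 70525324 to 70527858), exceeded Psmb9 (chromosome 17, 34182030 to 34187330) by 8.0, or 256-fold, with a range of 7.0 to 8.92. Psmb7, the trypsin-like subunit (chromosome 2, 38588046 to 38643952), exceeded Psmb10 by 3.91, or 15.1-fold, with a range of 3.50 to 4.24. Psmb10 (mean 3.23) was thus the inducible subunit with the highest level.

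Psmb10 was the one inducible subunit in the tested table. Its levels were 2.99 and 3.12 with DMSO, 3.36, 3.13 and 3.48 with bicuculline, and 3.72, 3.21 and 3.15 with NMP peptides. They were 3.43, 3.10 and 3.04 with PK-cleaved NMP peptides and 3.10, 3.48 and 2.99 with NMP peptides plus APV. NMP peptides replicate 1 was the highest of the 14. All 3 libraries with bicuculline (5.81% of all genes) and all 3 with NMP peptides (4.28%) lay above both DMSO libraries. The margins were slight, with lowest values of 3.126 with bicuculline and 3.149 with NMP peptides against 3.124 in DMSO replicate 3. Among the tested subunits, Psmb10 had the largest difference in 4 of the 6 comparisons, with bicuculline over DMSO at 0.27 (SE 0.18) and NMP peptides over DMSO at 0.30 (SE 0.18), neither of which passed the test (limma, adjusted p = 0.997 and 0.971). It also had the largest residual SD of the tested subunits, 0.234.

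Psmb9 had levels of -1.69 and -1.55 with DMSO, -1.69, -0.65 and -1.12 with bicuculline, and -0.82, -0.41 and -0.56 with NMP peptides. Its levels were -1.40, -2.20 and -2.27 with PK-cleaved NMP peptides and -1.87, -1.39 and -1.79 with NMP peptides plus APV. The 3 libraries with NMP peptides lay above all libraries of the DMSO, PK-cleaved and APV groups, and bicuculline replicate 2 lay among them. Group means ± SD were -0.60 ± 0.21 with NMP peptides (n = 3), -1.62 ± 0.10 with DMSO (n = 2), -1.96 ± 0.49 with PK-cleaved NMP peptides (n = 3) and -1.68 ± 0.26 with NMP peptides plus APV (n = 3).

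Because Psmb9 had been dropped as a low gene, it was fitted with no filter on low values. In limma, NMP peptides exceeded PK-cleaved NMP peptides by 1.36 (SE 0.29), or 2.57-fold, with an unadjusted p of 0.000373 and an adjusted p of 0.452. The difference from DMSO was 1.02 (SE 0.32), or 2.03-fold, with an unadjusted p of 0.00721 and an adjusted p of 0.959 in limma. The difference from NMP peptides plus APV was 1.08 (SE 0.29), or 2.12-fold, with an unadjusted p of 0.00229 and an adjusted p of 0.115 in limma. None of the 3 differences passed the test, and the fit left out the pairing of NMP peptides with PK-cleaved NMP peptides by replicate number. In that fit, an unadjusted p under 0.05 was reached by 2.19%, 2.87% and 14.2% of all genes in these comparisons, in the same order. Groups did not overlap, with NMP peptides above, for 2.9%, 4.23% and 11.4%.

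Psmb8 was lower still, at -2.28 and -2.71 with DMSO, -3.29, -3.05 and -2.74 with bicuculline, and -2.04, -2.71 and -2.83 with NMP peptides. Its levels were -2.26, -3.20 and -3.23 with PK-cleaved NMP peptides and -3.17, -3.14 and -3.74 with NMP peptides plus APV. The 3 APV libraries lay below both DMSO libraries and below the 3 libraries with NMP peptides alone. Against DMSO the difference was -0.85 (SE 0.37, adjusted p = 0.426 in limma with no filter). There, 11.1% of all genes had an unadjusted p under 0.05, and 21.6% lay below without overlap. NMP peptides exceeded NMP peptides plus APV by 0.82 (SE 0.33, adjusted p = 0.301 in the same fit). In that comparison 14.2% of all genes had an unadjusted p under 0.05, and 11.4% lay above without overlap.

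The other low members had values in part of the libraries. Psmb11 had a value in 7 of 14, which was -4.62 in DMSO replicate 2 and -5.60 to -5.45 in the others. Psma8 had a value in 1 of 14, bicuculline replicate 2, at -4.43, and was not fitted. Psmb11, fitted on the libraries with a value, rested on 1 or 2 libraries a group and did not pass the test for any difference (adjusted p = 0.909 in limma with no filter).

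**Figure D2:**
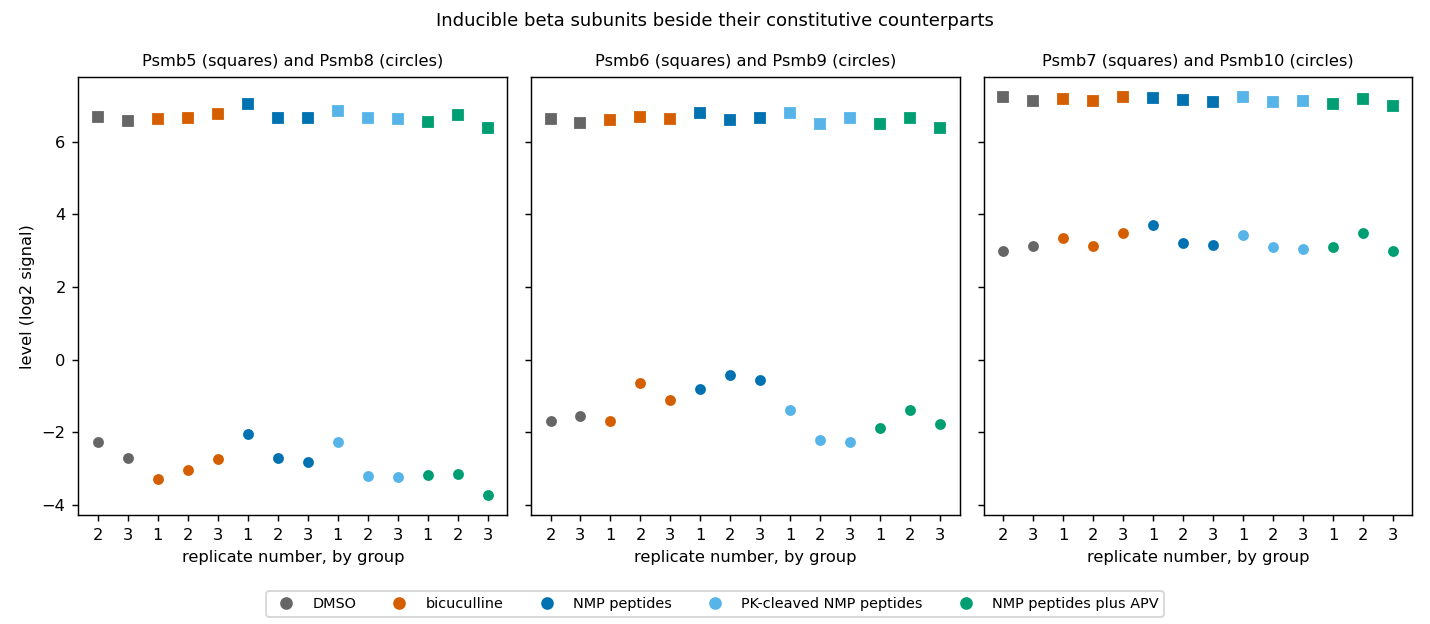
Level (log2 signal) of each constitutive cutting subunit (squares) and its inducible counterpart (circles) in each library, by group and replicate number. The gap is widest for Psmb5 and Psmb8 (8.96 to 10.1) and narrowest for Psmb7 and Psmb10 (3.50 to 4.24); the 3 Psmb9 circles with NMP peptides lie above those of DMSO, PK-cleaved NMP peptides and NMP peptides plus APV.

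Of the activators, Psme1 and Psme2 form a mixed ring that interferon induces, Psme3 forms a nuclear ring and Psme4 is a large single-chain cap. Psme1 (chromosome 14, 55578494 to 55581527) had levels of 5.50 and 5.25 with DMSO, 5.29, 5.52 and 5.42 with bicuculline, and 5.62, 5.32 and 5.55 with NMP peptides. It stood at 5.50, 5.24 and 5.54 with PK-cleaved NMP peptides and at 5.51 at the highest of the APV group, whose other libraries had 5.23 and 5.29. All groups overlapped.

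Psme2 (chromosome 14, 55587440 to 55591101) had levels of 4.67 and 4.47 with DMSO, 4.74, 4.84 and 4.61 with bicuculline, and 4.83, 4.71 and 4.76 with NMP peptides. Its levels were 4.8, 4.44 and 4.77 with PK-cleaved NMP peptides and 4.49, 5.06 and 4.74 with NMP peptides plus APV. The 3 libraries with NMP peptides lay above both DMSO libraries (4.28% of all genes), a difference of 0.20 (SE 0.14, adjusted p = 0.971 in limma). With APV added the difference from DMSO was 0.19 (SE 0.14, adjusted p = 0.643 in limma), the largest of any subunit in that comparison, and it rested on groups that overlapped.

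Psme3 (chromosome 11, 101316213 to 101323537) had levels of 5.26 and 5.25 with DMSO, 5.19, 5.27 and 5.13 with bicuculline, and 5.03, 5.19 and 5.20 with NMP peptides. It had 5.19, 5.20 and 5.17 with PK-cleaved NMP peptides and 5.07, 5.07 and 5.21 with NMP peptides plus APV. These 9 libraries with peptides lay below both DMSO libraries, and bicuculline replicate 2 lay above them. Of all genes, 13.1% lay below DMSO without overlap with NMP peptides, 9.15% with PK-cleaved NMP peptides and 21% with NMP peptides plus APV. Psme3 had the smallest p of the activators in the test for any difference among the 5 groups, 0.413 unadjusted and 0.890 adjusted in limma. Psme4 (chromosome 11, 30771775 to 30881150) ranged from 2.95 in NMP peptides plus APV replicate 2 to 3.34 in DMSO replicate 3 and NMP peptides replicate 2. Its other libraries had 3.20 with DMSO, 3.25, 3.25 and 3.29 with bicuculline, 3.08 and 3.17 with NMP peptides, 3.13, 3.32 and 3.20 with PK-cleaved NMP peptides, and 3.25 and 3.28 with NMP peptides plus APV. All its groups overlapped.

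No subunit passed the test in any of the 6 comparisons or in the test for any difference among the 5 groups (limma, 1 mean per group, adjusted p under 0.05 over 10877 genes). Set against DMSO, the share of all genes called was 0.469% with bicuculline, 0.0184% with NMP peptides, 0% with PK-cleaved NMP peptides and 0.625% with NMP peptides plus APV. When NMP peptides were set against their PK-cleaved form it was 0.0827%, against the peptides plus APV it was 1.43%, and for any difference it was 1.65%. A count of 0 among 39 genes lies near those shares. They moved with single libraries. For the APV group against DMSO, 68 genes were called in all, and 7 without DMSO replicate 3, 23 without DMSO replicate 2, 26 without APV replicate 2 and 31 without APV replicate 1. Between NMP peptides with and without APV, 156 were called in all, and 57 to 101 when any library of these groups was left out. For any difference, 179 were called in all, and 103 to 109 when any APV library was left out. With bicuculline, 51 were called in all and 30 without DMSO replicate 3. The other comparisons had at most 12 called genes whichever library was left out. By the unadjusted p under 0.05 for any difference, the subunits numbered 0 of 39, where 9.48% of all genes passed.

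The intervals give a range for the difference of each subunit taken singly. They were not adjusted for their number, and a change in the total amount of RNA is lost in the scaling. All 39 intervals at 95% confidence lay within 1 on the log2 scale on either side of 0 in each comparison. Against DMSO, those within 0.5 numbered 38 with bicuculline, 37 with NMP peptides, 38 with PK-cleaved NMP peptides and 37 with NMP peptides plus APV. They numbered 38 in each comparison of NMP peptides with the other peptide groups. The most extreme bound was 0.69, that of Psmb10 for NMP peptides against DMSO. The median SE was 0.0847 against the 2 DMSO libraries and 0.0758 between groups of 3.

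Within groups, the median residual SD of the subunits was 0.0869, from 0.0355 for the ATPase Psmc6 to 0.234 for Psmb10. It was 0.127 for all tested genes. It was 0.109 for the 5479 genes with a mean between the lowest (3.18) and the highest (7.44) tested subunit. Those genes were not matched to the subunits in level, and 29 of the subunits lay at 5.77 or above. The part of level in this difference was not tested.

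With bicuculline, 0 of 39 subunits reached even an unadjusted p under 0.05 against DMSO, where 3.14% of all genes did. Their median difference was 0.00457 against -0.03 over all genes, and 20 lay above 0, as 37.1% of all genes did, and 19 below. The counts were 24 and 15 after each library was centred on its median over the tested genes. This library median differed between libraries, unlike that over all features with a value. Without DMSO replicate 3 the counts were 14 and 25, and the median difference was -0.0127. In all, 5 subunits lay above both DMSO libraries in every bicuculline library (5.81% of all genes) and 3 below (12%).

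With NMP peptides, again 0 of 39 reached an unadjusted p under 0.05 against DMSO (2.02% of all genes). The median difference was 0.03, against -0.04 for all genes, with 24 above 0, as were 35.3% of all genes, and 15 below. The counts were 28 and 11 after median centring, and 19 and 20 without NMP peptides replicate 1, when the median was -0.000365. There were 9 subunits without overlap above DMSO (4.28% of all genes) and 6 below (13.1%). Among them were Psmc3, above by 0.08 (SE 0.063), and Psmd2, below by 0.10 (SE 0.061).

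With PK-cleaved NMP peptides, 0 of 39 reached an unadjusted p under 0.05 against DMSO (1.05% of all genes). The median was 0.00452, against -0.04 for all genes, with 22 above 0, as were 34% of all genes, and 17 below. The counts were 30 and 9 after median centring, 11 and 28 without PK-cleaved replicate 1 (median -0.0366), 29 and 10 without PK-cleaved replicate 2 (median 0.0470) and 19 and 20 without DMSO replicate 3 (median -0.00176). The largest difference was that of Psmb10, 0.13 (SE 0.18), with groups that overlapped. Just 1 subunit lay above without overlap (1.88% of all genes) and 3 below (9.15%).

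Between NMP peptides and PK-cleaved NMP peptides, 0 of 39 subunits reached an unadjusted p under 0.05 (1.65% of all genes). The fit left out the pairing of these groups by replicate number, which the data showed. A replicate block, also with 0 of 39, set the same replicate effects for all 5 groups, so this pairing alone was not fitted. The median difference was 0.03 against 0.000997 over all genes, and 25 lay above 0 (50.5% of all genes) and 14 below. The counts were 17 and 22 without PK-cleaved replicate 2 (median -0.0148), 20 and 19 without NMP peptides replicate 1 (median 0.00277) and 29 and 10 without PK-cleaved replicate 1 (median 0.0528). Psmb10 had the largest difference, 0.17 (SE 0.16), which was -0.00740 without NMP peptides replicate 1. No subunit lay above without overlap (2.48% of all genes) and 1 lay below (2.73%).

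**Figure D3:**
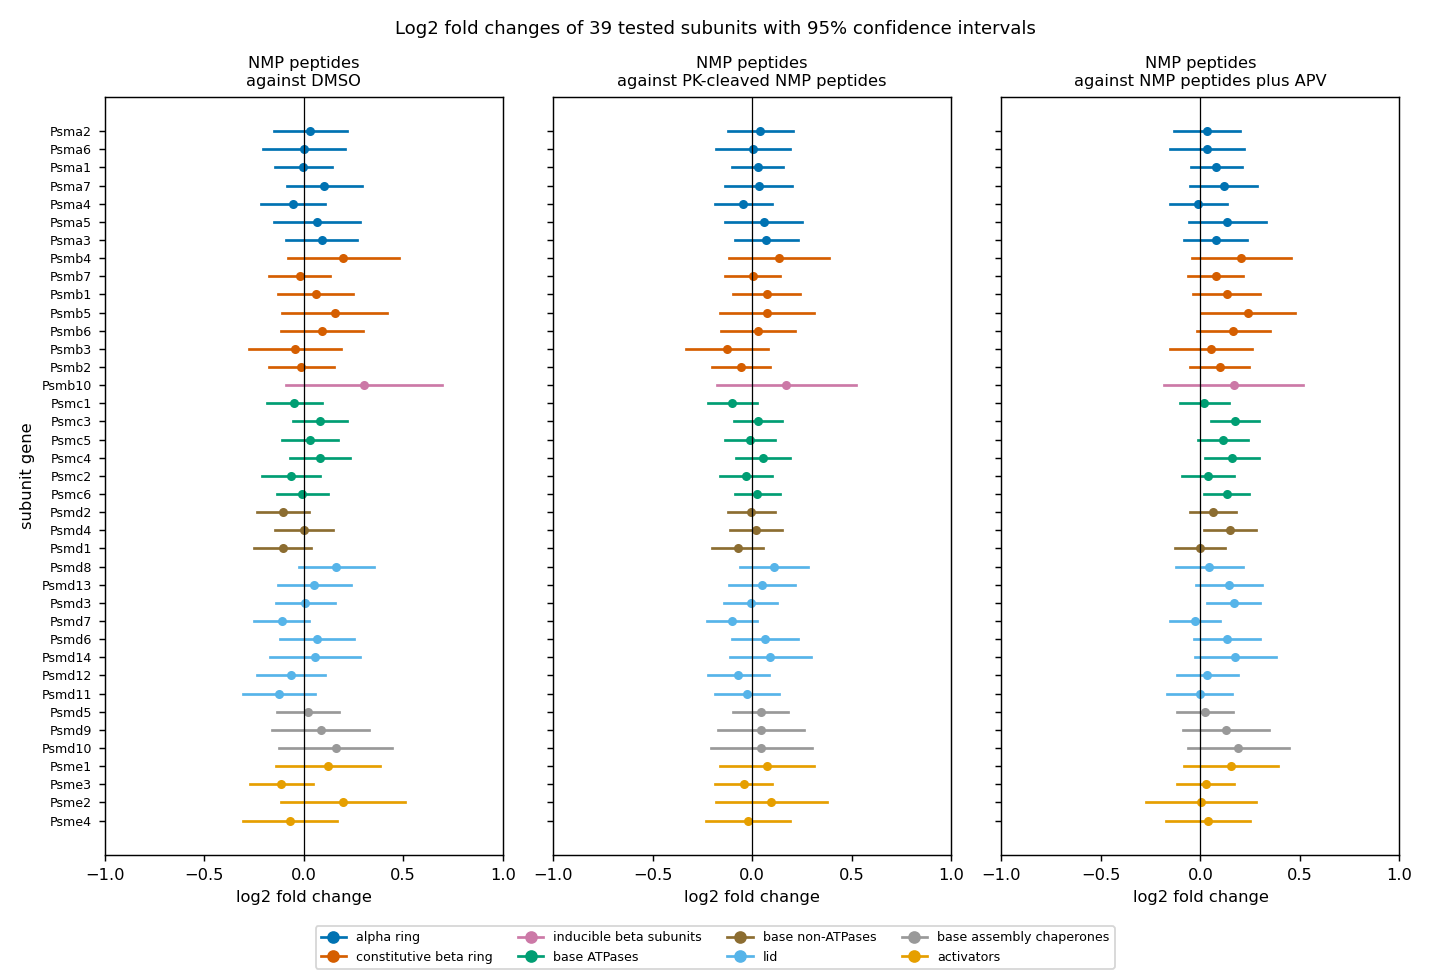
Log2 fold change (horizontal axis) with its 95% confidence interval for the 39 tested subunits, coloured by role, for NMP peptides against the DMSO, PK-cleaved and APV groups. In the right panel 35 of 39 points lie above 0, and no subunit in any panel passed an adjusted p of 0.05.

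On the deposited scale, the comparisons with the APV group had the largest share of subunits on one side of 0; after median centring, PK-cleaved NMP peptides against DMSO (30 of 39) exceeded the APV group against DMSO (28 of 39). The 2 comparisons with this group share its 3 libraries, so their values are given side by side and are not separate evidence. Against DMSO, 35 of 39 subunits lay below 0 where 63.7% of all genes did (4 lay above, against 36.3%), with a median of -0.08 against -0.05. NMP peptides lay above NMP peptides plus APV for 35 of 39 where 53.5% of all genes did, with a median of 0.10 against 0.01. After each library was centred on its median, the counts were 28 of 39 below and 34 of 39 above. Without APV replicate 1 they were 27 and 29, and without APV replicate 3 they were 30 and 36.

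Against DMSO, 4 subunits reached an unadjusted p under 0.05 (11.5% of all genes), 11 lay below without overlap (21% of all genes) and 0 above (8.86%). The 4 were the scaffold Psmd2 at -0.17 (SE 0.061), the lid subunit Psmd3 at -0.16 (SE 0.070), the ubiquitin receptor Psmd4 at -0.15 and the ATPase Psmc6 at -0.14. Their adjusted p-values in limma were 0.308 to 0.428. Between NMP peptides and NMP peptides plus APV, 6 reached an unadjusted p under 0.05 (15.8% of all genes), 8 lay above without overlap (12.2%) and 0 below (9.62%). The 6 were Psmc3 at 0.17 (SE 0.056), Psmd3 at 0.17 (SE 0.062), Psmc4 at 0.16, Psmd4 at 0.15, Psmc6 at 0.13 and Psmb5 at 0.24 (SE 0.11). Psmb5 had the largest difference of any subunit, with groups that overlapped. The number with an unadjusted p under 0.05 was 13 without APV replicate 2, 3 without APV replicate 3, 2 without NMP peptides replicate 1, 4 without APV replicate 1 and 4 without NMP peptides replicate 3.

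By role, the median difference of NMP peptides over NMP peptides plus APV was 0.13 for the constitutive beta ring (7 of 7 above 0), 0.12 for the ATPases (6 of 6) and 0.08 for the alpha ring (6 of 7). It was 0.06 for the base non-ATPases (2 of 3), 0.09 for the lid (6 of 8), 0.13 for the chaperones (3 of 3) and 0.03 for the activators (4 of 4). Marker sums moved with the same group. Astrocyte markers summed to 307.4 to 335.5 in the APV libraries and to at most 306.8 elsewhere, and inhibitory neuron markers to 459 to 482 against at least 500.3 elsewhere. The lists did not move as a whole. Of the inhibitory markers, Sst (8.02 to 8.12 with APV) and Gad1 (5.25 to 5.34) lay below all other libraries, and Gad2 (3.16 to 3.70) and Dlx1 (4.42 to 4.64) did not. Of the astrocyte markers, Gfap had 2.61 to 2.77 with APV and 2.15 to 4.18 elsewhere, and Slc1a3 and Slc1a2, the most abundant, overlapped the other libraries. The part of these in the result was not tested.

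Psmc3, an ATPase of the base (chromosome 2, 91054016 to 91059438), had the smallest p for any difference among the 5 groups, 0.0617 unadjusted and 0.565 adjusted in limma. Its levels were 6.26 and 6.28 with DMSO, 6.35, 6.28 and 6.32 with bicuculline, and 6.43, 6.28 and 6.34 with NMP peptides. They were 6.34, 6.32 and 6.30 with PK-cleaved NMP peptides and 6.13, 6.24 and 6.16 with NMP peptides plus APV. The 3 APV libraries were the lowest of the 14, by a small margin. The share of all genes with this order was not counted. Taken by pairs of groups, the APV libraries lay below both DMSO libraries for 21% of all genes. They lay below those with NMP peptides alone for 12.2%. NMP peptides exceeded NMP peptides plus APV 1.13-fold (adjusted p = 0.171 in limma).

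Psmd3, a lid subunit (chromosome 11, 98682554 to 98695978), had 6.08 and 6.10 with DMSO, 6.13, 6.07 and 6.09 with bicuculline, and 6.15, 6.05 and 6.10 with NMP peptides. It had 6.07, 6.11 and 6.14 with PK-cleaved NMP peptides and 6.02, 5.81 and 5.97 with NMP peptides plus APV. Again the APV libraries were the lowest of the 14, with replicate 2 furthest down, an order whose share over all genes was not counted. By pairs of groups, the shares were again 21% below DMSO and 12.2% below NMP peptides alone. Psmd4, the ubiquitin receptor (chromosome 3, 95032688 to 95042614), had 6.14 and 6.17 with DMSO, 6.06, 6.13 and 6.15 with bicuculline, and 6.22, 6.07 and 6.17 with NMP peptides. It had 6.12, 6.11 and 6.17 with PK-cleaved NMP peptides and 6.04, 6.06 and 5.91 with NMP peptides plus APV, where replicate 3 was the lowest of the 14.

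Psmb5, whose antioxidant core is shown above, had 6.68 and 6.58 with DMSO, 6.64, 6.65 and 6.76 with bicuculline, and 7.04, 6.65 and 6.67 with NMP peptides. It had 6.86, 6.65 and 6.63 with PK-cleaved NMP peptides and 6.54, 6.74 and 6.37 with NMP peptides plus APV. NMP peptides replicate 1 was the highest of the 14 and APV replicate 3 the lowest. Psmb6 had 6.64 and 6.53 with DMSO, 6.60, 6.69 and 6.62 with bicuculline, 6.78, 6.59 and 6.65 with NMP peptides, 6.79, 6.50 and 6.65 with PK-cleaved NMP peptides, and 6.48, 6.66 and 6.39 with NMP peptides plus APV. Psmb7 had 7.22 and 7.13 with DMSO, 7.18, 7.14 and 7.23 with bicuculline, 7.21, 7.15 and 7.11 with NMP peptides, 7.23, 7.11 and 7.12 with PK-cleaved NMP peptides, and 7.05, 7.19 and 7.0 with NMP peptides plus APV. For all 3 cutting subunits, APV replicate 3 was the lowest of the 14 libraries.

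In the roles not yet shown, the member with the smallest p for any difference was Psma7 for the alpha ring, Psmb2 for the constitutive beta ring and Psmd10 for the chaperones (0.473, 0.310 and 0.505 unadjusted in limma, none under 0.837 when adjusted). Psma7 (chromosome 2, 180036367 to 180042464) had 6.09 and 6.08 with DMSO, 6.15, 6.11 and 6.28 with bicuculline, 6.24, 6.14 and 6.17 with NMP peptides, 6.31, 5.98 and 6.17 with PK-cleaved NMP peptides, and 6.01, 6.13 and 6.06 with NMP peptides plus APV. Its libraries with bicuculline (5.81% of all genes) and with NMP peptides (4.28%) lay above both DMSO libraries. The PK-cleaved group held both the highest and the lowest value. Psmb2 (chromosome 4, 126677637 to 126709715) had 6.35 and 6.33 with DMSO, 6.28, 6.33 and 6.30 with bicuculline, 6.22, 6.43 and 6.33 with NMP peptides, 6.51, 6.30 and 6.35 with PK-cleaved NMP peptides, and 6.18, 6.22 and 6.29 with NMP peptides plus APV. The APV libraries lay below both DMSO libraries, as they did for 21% of all genes. Psmd10 (chromosome X, 140948425 to 140956711), a base chaperone also called gankyrin, had 3.12 and 3.09 with DMSO, 3.19, 3.17 and 3.28 with bicuculline, and 3.45, 3.21 and 3.13 with NMP peptides. It had 3.44, 3.02 and 3.19 with PK-cleaved NMP peptides and 2.95, 3.30 and 2.98 with NMP peptides plus APV, where replicates 1 and 3 were the lowest of the 14.

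Single libraries differed in the level of the subunits as a whole. Each tested subunit was set against its own mean over the 14 libraries. The median over the 39 was highest in PK-cleaved NMP peptides replicate 1, at 0.10, where 35 of 39 lay above their mean, and in NMP peptides replicate 1, at 0.0848, where 28 did. It was lowest in APV replicate 1, at -0.12, where 1 of 39 lay above its mean, and in APV replicate 3, at -0.0771, where 11 did. APV replicate 2, treated alike, stood at 0.0416 with 23 above. The group means of this median were -0.0531 ± 0.0852 for NMP peptides plus APV (SD, n = 3), 0.0335 ± 0.0453 for NMP peptides (SD, n = 3) and 0.0179 ± 0.0775 for PK-cleaved NMP peptides (SD, n = 3). They were 0.0137 ± 0.0116 for bicuculline (SD, n = 3) and 0.00804 ± 0.0136 for DMSO (SD, n = 2), so the APV libraries and the PK-cleaved libraries each ranged more widely than the 5 group means. Over all tested genes the same median ranged from -0.03 to 0.0475.

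A gene's exon length moved with the deviations in some libraries. In PK-cleaved NMP peptides replicate 1 Spearman's correlation of deviation with length was -0.57 across the 39 subunits and -0.59 across 10572 genes, so shorter genes stood higher. In NMP peptides replicate 1 it was -0.31 and -0.41. In APV replicate 1 it was 0.45 and 0.36, and in APV replicate 3 it was 0.31 and 0.34, so longer genes stood higher. Others did not follow: APV replicate 2 had -0.29 and -0.01, and DMSO replicate 3, with a median deviation of -0.00156, had 0.47 and 0.26. The 20 shorter and 19 longer subunits deviated the same way in APV replicate 1 (medians -0.14 and -0.10) and in PK-cleaved NMP peptides replicate 1 (0.12 and 0.0718). These points share a library and are not independent. The part of length in the subunits' values was not tested.

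**Figure D4:**
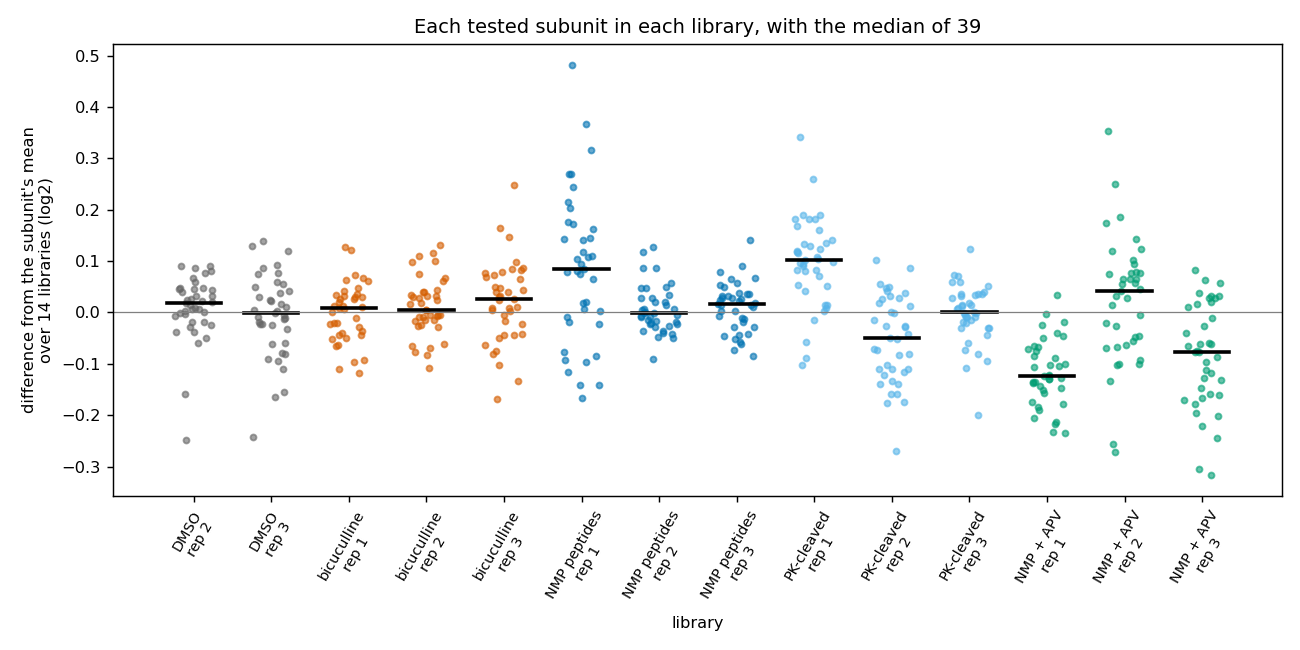
Difference of each of the 39 tested subunits from its own mean over 14 libraries (log2, vertical axis) in each library; bars are the medians. The medians run from -0.12 in NMP peptides plus APV replicate 1 to 0.10 in PK-cleaved NMP peptides replicate 1, and the 3 APV libraries stand on both sides of 0.

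The other genes of the pathway were read from lists of 11 further proteasome genes, 9 genes that control transcription of the subunits, 19 genes of ubiquitin supply and handling, 7 genes of interferon response and antigen processing, and Gpm6a and Gpm6b, membrane glycoproteins linked to the neuronal membrane proteasome. These counts are of tested genes. Of the 48, 1 passed the test, with higher levels in 2 of the 6 comparisons, and 0 passed with lower levels. Of all genes, 0.469% were called with bicuculline against DMSO and 1.43% between NMP peptides with and without APV. Maff, a small Maf protein that pairs with Nfe2l1 and Nfe2l2 on antioxidant response elements, rose with bicuculline against DMSO by 2.21 (SE 0.30), or 4.62-fold (adjusted p = 0.0015 in limma). It was also higher with NMP peptides than with NMP peptides plus APV, by 1.49 (SE 0.27), or 2.80-fold (adjusted p = 0.0136 in limma).

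The level of Maff was 0.48 and 0.88 with DMSO, 2.83, 2.36 and 3.48 with bicuculline, and 2.30, 2.13 and 1.49 with NMP peptides. It was 1.11, 0.70 and 0.45 with PK-cleaved NMP peptides and 0.70, 0.49 and 0.27 with NMP peptides plus APV. All libraries with bicuculline or with NMP peptides alone lay above all others. The share of all genes with this order was not counted. Without overlap, 5.81% of all genes lay above DMSO with bicuculline and 4.28% with NMP peptides. NMP peptides lay above their PK-cleaved form without overlap for 2.48% and above NMP peptides plus APV for 12.2%. The differences of NMP peptides from DMSO, 1.29 (SE 0.30), and from PK-cleaved NMP peptides, 1.22 (SE 0.27), did not pass the test (adjusted p = 0.440 and 0.409 in limma). The second of the called differences was lost without NMP peptides replicate 1 (1.32, adjusted p = 0.0709), NMP peptides replicate 2 (1.41, adjusted p = 0.0583) or APV replicate 3 (1.38, adjusted p = 0.0739). Its partner Nfe2l1 had levels from 5.51 to 5.80 over all libraries and passed no test.

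In NMP peptides plus APV against DMSO, the smallest p of the lists belonged to Zfand5, a proteasome-binding zinc finger protein. It differed by -0.28 (SE 0.081, adjusted p = 0.171 in limma). Its levels were 4.99 and 5.05 with DMSO and 4.73, 4.67 and 4.82 with NMP peptides plus APV, with 4.88 to 5.31 in the other groups. Of the interferon list, Irf1, Irf8, Nlrc5 and Tap2 were too low to be tested. Gpm6a had levels of 8.79 to 9.01 and Gpm6b of 7.28 to 7.58. The lowest value of Gpm6a lay above the highest subunit value, 7.76 for Psmb4, and neither gene passed the test in any comparison.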

How the data were processed

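The deposited table holds log2 signals by the authors for 45802 features in 14 libraries of ribosome-depleted total RNA, read in pairs of 100 bases per the labels' protocols. Per the submitters' processing notes, GRCm38.p6 was the build. Aligner, counter, annotation and strand setting: not given in the sources used here. Reads shared with pseudogenes or antisense genes therefore cannot be told apart. Base 2 and a scale per length were inferred: antilogged values times exon length in kilobases (GENCODE, same build) gave library sums of 1180280 to 1265990, and base e gave 8351430 to 9078370.

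The subunits, lists and tests were chosen with earlier results of these data known. Features with a value in at least 1 library were ranked by mean, and the lowest 40% were dropped. All 14 libraries entered a limma fit (3.58.1, R 4.3.3) with group means, empirical Bayes moderation and a trended variance. Tests were two-sided, with Benjamini-Hochberg adjustment over 10877 genes and calls at an adjusted p under 0.05. The procedure was run on simulated data with noise drawn independently for each gene and library. Those data held no shifts of whole libraries, so they do not show how the procedure handles such shifts. Values per library are given for the subunit of each role with the smallest p for any difference, the largest difference in each comparison, the inducible and activator genes, and, of the pathway lists, called genes and the smallest p in each comparison, of which 1 is not reported here. Psmd2, Psmd3, Psmc4, Psmc6 and Nfe2l1 are also named after their values were seen where counts list them. RefSeq promoters were searched for motifs.

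Replicate numbers pair NMP peptides with PK-cleaved NMP peptides by the data: deviations from the group means correlated across genes at 0.51, 0.499 and 0.613 for numbers 1 to 3. They did not pair NMP peptides with NMP peptides plus APV (-0.145, -0.21 and 0.133), and DMSO shares 2 numbers with each group. The main fit used no pairing. The replicate block set the same replicate effects over all 5 groups, which these correlations do not bear out. No fit held the pairing of NMP peptides with PK-cleaved NMP peptides alone. Alternatives were other filters, centring of each library on its median over the tested genes, a replicate block, no variance trend and array weights. Others were the compared groups alone, each library left out in turn and the 4 libraries with the highest Gfap left out.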

Additional observations from a re-analysis of the deposited data

How the results depend on the processing

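The count of 0 called subunits held in 152 of 153 alternative fits over the 6 comparisons and the test for any difference. The exception was array weights in the comparison of NMP peptides with and without APV, where 1 subunit was called, Psmc3 (log2 difference 0.18, adjusted p = 0.0417 in limma); the cause was not tested. With the replicate block, 0 subunits were called in each of the 6 comparisons and in the test for any difference, and both calls of Maff held. Replicate numbers did not mark shared deviations across all groups, so this block cannot decide what pairing would change. Over all genes the block moved the number called from 68 to 32 for the APV group against DMSO and from 2 to 0 for NMP peptides against DMSO. Subunits with an unadjusted p under 0.05 numbered 6 between NMP peptides with and without APV, and 14 with array weights, 1 with the compared groups alone and 2 when the 4 Gfap-richest libraries were left out. For the APV group against DMSO they numbered 4, and 1 with median centring or no variance trend, 2 with the replicate block, 0 with the compared groups alone or without those 4 libraries, and 0 to 5 with 1 library left out. The median differences moved by less than the SD within groups of the library medians, 0.0588, in 132 of 132 alternatives. That SD exceeds 4 of the 6 medians, and 4 turned sign when 1 library was left out. Leaving out 1 library at a time moved the difference of Psmb10 between NMP peptides and PK-cleaved NMP peptides from -0.00740 (without NMP peptides replicate 1) to 0.29. With no filter on low values, leaving out 1 library at a time kept the Psmb9 difference at 1.20 to 1.64 against PK-cleaved NMP peptides (adjusted p 0.117 to 1), at 0.93 to 1.13 against DMSO (adjusted p 0.841 to 1.00) and at 0.99 to 1.23 against NMP peptides plus APV (adjusted p 0.0677 to 0.310, limma throughout); these fits of Psmb9 were chosen after seeing the data. Where a DMSO library was left out, the lone library was assumed to vary like the other groups. Read depth is unknown, so the precision of the low values of Psmb8, Psmb9 and Psmb11 cannot be stated from counts.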
